A study of Homo sapiens with 2 samples.

Results

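The transcripts of 9 immune surface and checkpoint genes, 8 for proteins at the cell surface and B4GALT1 for a Golgi enzyme, were examined for RBMS3 contacts: CD274, B4GALT1, CD47, CD46, CD55, CD59, B2M, NT5E and CD44. They are encoded on chromosomes 9, 9, 3, 1, 1, 11, 15, 6 and 11, in that order. The genes were chosen by name, with earlier results of these data known. Their sites are the entries of the RBMS3 site list that lie on the gene's own strand in GENCODE release 44. This gave 154 of the 27706 sites in all. RBMS3 sites were found in 7542 protein-coding genes.

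The contacts come from CLIP-seq of RBMS3 in MDA-MB-231 cells, an established triple-negative breast cancer line that carried RBMS3 with an N-terminal FLAG tag from a stable lentiviral construct. Both biological replicates had this make-up and received ultraviolet light of 254 nm at 400 mJ per cm2, which joins protein to the RNA it touches, and there was no other group. The title of replicate 2 gives MDA-MB-231, but the line number in its source and cell line fields is another. The authors pooled the unique reads, called tags, of both replicates before sites were called, so no value below has a replicate error and a site may rest on 1 replicate.

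RBMS3 is a single-stranded nucleic acid-binding protein of the RBMS family, whose members bind A- and U-rich RNA. Binding in the 3′UTR is a common way by which such proteins influence how long an mRNA lasts and how much protein it gives. At the end of most 3′UTRs a hexamer, AAUAAA or a variant of it, directs cleavage and addition of the poly(A) tail, and many genes have several such ends. B4GALT1, a Golgi enzyme that adds galactose to N-glycans, has been reported as a target of the paralogue RBMS1 that acts on PD-L1, the product of CD274.

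A crosslinked base is often skipped by reverse transcriptase and is then read as a deletion, and each listed site was called as such a base. Whether each one is a crosslinked base was not tested. The data at a site are its covering tags and, among these, its tags with the deletion, whose share is the deletion percentage. No library without immunoprecipitation was analysed here, so a high tag count from strong binding and a high tag count from an abundant RNA cannot be told apart. The protocol added a poly(A) tail to the recovered RNA and captured it with oligo(dT), and RNA that already ended in poly(A) could be captured as well; the part of this in the counts at transcript ends was not tested. The labelled cell type was not checked against marker genes, as the list holds sites and not expression levels.

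All 9 genes had an RBMS3 site in the 3′UTR, beside 6371 of 19595 protein-coding genes with an annotated 3′UTR (32.5%). The genes were chosen with earlier results known and expression was not measured here, so this reads as sites found and not as preference. Of the 154 sites, 145 lay in a 3′UTR (94.2%, 95% exact binomial interval 89.2 to 97.3%), beside 76.6% of all listed sites. A further 6 lay in introns, 2 in coding exons, 1 in an exon of a non-coding transcript and 0 in a 5′UTR. The gap from the whole list was smaller among sites with the deletion in under 30% of tags, of which 139 of 142 (97.9%) were in a 3′UTR here and 95.2% in the whole list. Sites of a gene share tags, so this interval and those of the shares given later are narrower than the error of independent transcripts, and they and the intervals of single sites cover counting error only.

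The sites were dense and deep. Sites no more than 50 nt apart were joined, which gave 37 clusters, of which 19 held 1 site. A median of 22635.5 tags covered a site (range 8 to 99156), beside 2883.5 in the whole list, and the median number of deletions was 78.5 (range 8 to 2194), beside 54. The number of sites per gene ran from 1 in CD274 to 30 in CD44. The summed deletions ran from 47 in CD274 to 10007 in B2M, which was the highest sum among the 7542 genes.

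CD274 encodes PD-L1, the ligand that restrains T cells through the receptor PD-1. It lies at chr9:5450503-5470566 on the plus strand of hg38 and had 1 site, at position 5470456 in the 3′UTR, 98 nt upstream of the annotated end of the transcript CD274-202. Of 3173 tags, 47 carried the deletion (1.48%, 95% Wilson interval 1.12 to 1.96%). Among the 7542 genes, CD274 ranked 3372 by its deepest site and 5531 by summed deletions, and 2667 genes in all had exactly 1 site. The 30 nt printed for it, at chr9:5470446-5470475, hold the deleted U as base 11 and, from 3 nt further on, the hexamer AATAAA, written in capitals. Capitals mark AATAAA or a variant of it in every sequence given here. The sequences are printed as DNA, 5′ to 3′ on the gene's strand. Each run of 30 nt was placed to hold the deletion and, where it fitted, such a hexamer. The presence of a hexamer in a run is therefore by choice, and whether it serves the annotated end was not tested.
CD274: cctgcattaatttAATAAAatattcttatt

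B4GALT1, at chr9:33104082-33167356 on the minus strand, had 12 sites, all in the 3′UTR. Of these, 11 formed a cluster between 33110646 and 33110716, just upstream of the end of B4GALT1-201 at 33110642. They were covered by 4896 to 24581 tags and held 1544 deletions. The site with the most deletions lay 44 nt from the end, with 396 of 20150 tags (1.97%, interval 1.78 to 2.17%), and the next lay 50 nt from it, with 285 of 15178 tags (1.88%). The last site stood apart, 2645 nt upstream of the end, with the deletion in 9 of 9 tags. No site lay at the other annotated end of the gene, 33104082. B4GALT1 ranked 323 by summed deletions and 425 by its deepest site, above CD274 on both measures.

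Around the B4GALT1 cluster AATAAA was found within 25 nt of 8 of the sites. The AUA motif described for this protein in the study was searched in the same 51-nt windows as NNATANA, in which the first base is A, G or T and the second and sixth are A or T. It can contain AATAAA, so windows with a match that does not hold the whole of AATAAA were counted too. Such a match is called apart from AATAAA here, though it can overlap part of one. The motif was in 10 of the 12 B4GALT1 windows, and in 9 of them there were matches apart from AATAAA. In the run printed for chr9:33110658-33110687, with the deleted U as base 2, these are the AU repeats ahead of the capitals.
B4GALT1: ttaaaattaaataatataacgtgAATAAAt

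CD47 gives macrophages a signal not to engulf the cell, through SIRP-alpha. It lies at chr3:108043091-108091862 on the minus strand and had 15 sites, of which 14 were in the 3′UTR and 1, with 8 of 8 tags, was in an intron. Their values fell into 2 deep groups at different annotated transcript ends. The upstream group had 5 sites, led by 108047103, 24 nt from the end of CD47-203 and CD47-205, with 334 of 12834 tags (2.60%, interval 2.34 to 2.89%). The downstream group had 7 sites and deeper coverage, up to 30801 tags, and 1708 deletions against 553. Its leading site, 108043305, had 611 of 24728 tags (2.47%, interval 2.29 to 2.67%) and lay 7 nt from the end of CD47-204, a transcript annotated as a retained intron.

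No CD47 site was within 100 nt of the end of the gene's representative transcript, CD47-202, at 108043091. Another site, 108045722, carried the deletion in 62 of 1362 tags (4.55%) with no annotated end within 100 nt. AATAAA was in 9 of the 15 windows and the AUA motif in 9, 5 of them apart from AATAAA. The runs of the leading sites, at chr3:108047083-108047112 and chr3:108043296-108043325, show the deleted U 5 nt ahead of the signal in the upstream group and 12 nt beyond the signal's first base in the downstream group.
CD47 upstream end: gctgtaatttagttAATAAAataattatga
CD47 downstream end: atatacttAATAAAacattttaagctattt

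CD46, CD55 and CD59 protect the cell from complement: CD46 is a cofactor for cleavage of C3b and C4b, CD55 speeds the decay of the convertases, and CD59 blocks assembly of the membrane attack complex. CD46, at chr1:207752037-207795513 on the plus strand, had 13 sites, 12 of them in the 3′UTR and all 12 within 100 nt of an annotated end. The 10 sites of its main cluster were covered by up to 28779 tags and held 881 deletions. The nearest downstream end was that of CD46-208 for 7 of these sites and that of CD46-233 for 3. Other annotated ends lie within the cluster and just beyond it. The leading site lay 12 nt from the end of CD46-208, with 214 of 27470 tags (0.779%, interval 0.682 to 0.890%). A pair of sites further upstream was shallower, led by 90 of 3562 tags (2.53%), 28 nt from the end of CD46-216. AATAAA was in 9 of the 13 windows, and the run printed for the leading site is chr1:207795474-207795503. All 13 sites lie opposite MIR29B2CHG, which is encoded on the other strand.
CD46: aaatctgttaaAATAAAattgtacatttgg

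CD55, at chr1:207321519-207386804 on the plus strand, had 15 sites in 7 clusters, the most scattered of the 9 genes together with NT5E. The deepest cluster, 6 sites of 17060 to 23270 tags, lay at the end of CD55-201, with 267 of 17060 tags (1.57%, interval 1.39 to 1.76%) at its leading site. Shorter and longer ends were contacted too: 162 of 4493 tags (3.61%) at a site 6 nt from the end of CD55-216, and 133 of 1638 tags (8.12%, interval 6.89 to 9.54%) at a site 15 nt from the end of CD55-204. The last was the highest deletion percentage of any site of these genes with at least 1000 tags. AATAAA was in 10 of the 15 windows.

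A pair of CD55 sites lay in an intron at depths of 4960 and 5804 tags, with 50 and 62 deletions (1.01% and 1.07%), and with no annotated end of the gene within 100 nt. The variant AATATA was beside them, and 16 and 14 of the 40 nt downstream were A, against a median of 13 at all sites of these genes. The 3 runs are those at chr1:207360460-207360489, chr1:207360933-207360962 and chr1:207367259-207367288.
CD55-201 end: tgtatttttcctaaatagaAATAAAtgatc
CD55-204 end: tatttcttaaAATAAAactttttttcctcc
CD55 intron: ataatttattgAATATAtttatagtatatg

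CD59, at chr11:33703010-33736479 on the minus strand, had 22 sites, all in the 3′UTR and all with the deletion in under 30% of tags. AATAAA was in 1 of the 22 windows, the lowest share among the 9 genes, beside 46.4% of all listed sites. The deepest cluster, 6 sites of up to 30907 tags, was led by 408 of 30328 tags (1.35%, interval 1.22 to 1.48%) and 322 of 29733 tags (1.08%) at uridines 4 nt apart. Those sites lay 23 and 27 nt beyond the annotated end of CD59-202, with AATAGA as the nearest signal variant. A second deep cluster, 8 sites of up to 29571 tags, preceded the end of CD59-209, a retained-intron transcript, and no searched signal was near its leading site.

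The last end of CD59 had a further 5 sites, led by 159 of 9662 tags (1.65%), 32 nt from the end of CD59-216 and beside AATATA. The site with AATAAA, 33705304, had 125 of 9509 tags (1.31%, interval 1.10 to 1.56%) and lay 2292 nt from the nearest annotated end. The AUA motif was in 6 CD59 windows, each time apart from AATAAA. All 22 sites also lie in a second gene of the same strand, ENSG00000284969, so the tags cannot be told apart between the 2 genes. The runs are at chr11:33708682-33708711, chr11:33703024-33703053 and chr11:33705288-33705317.
CD59-202 end: acataggaaAATAGAaacttgcttatcaaa
CD59-216 end: tgcttcatttaaaaAATATAacgcaaaatc
CD59 without an annotated end: tcaaagccctccAATAAAttctcagtgtaa

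B2M encodes beta-2-microglobulin, the light chain that all classical MHC class I molecules need to reach the surface and present peptide. At chr15:44711358-44718851 on the plus strand, it had 26 sites, of which 25 formed a continuous cluster from 44718034 to 44718142. Coverage rose along the cluster from 4140 tags at its upstream edge to 99156 tags at 44718123, 18 nt from the end of B2M-212, and was 75081 tags at the last site. Deletions did not follow the tags. They peaked at a pair of uridines 4 nt apart, 44718105 with 2194 of 66764 tags (3.29%, interval 3.15 to 3.42%) and 44718109 with 2059 of 65466 tags (3.15%, interval 3.01 to 3.28%). At the deepest site, a G, only 78 tags carried the deletion (0.0787%, interval 0.0630 to 0.0982%).

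The B2M uridines with the next most deletions were 44718090, with 941 of 50808 tags (1.85%), and 44718070, with 716 of 30316 tags (2.36%). Others were far lower, down to 56 of 75081 tags (0.0746%) at 44718142. B2M ranked 1 by summed deletions, 5 by its deepest site and 18 by number of sites. AATAAA was in 11 of the 26 windows, all of them in the downstream part of the cluster, and a match to the AUA motif apart from AATAAA was in 0. The run is at chr15:44718104-44718133, with the deleted U of the leading site as base 2, 22 nt ahead of the signal. A site in a coding exon had 16 of 23 tags.
B2M: gtttatttttgttccacaagttaAATAAAt

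NT5E encodes CD73, which makes immunosuppressive adenosine from AMP outside the cell. It lies at chr6:85449584-85495791 on the plus strand and had 20 sites, of which 17 were in the 3′UTR. Its end cluster had 12 sites of 20821 to 72266 tags and 2989 deletions, and ranked the gene 20 by depth. Here the leading base was an A, the first base of the AATAAA itself: 862 of 72266 tags (1.19%, interval 1.12 to 1.28%), 20 nt from the end of NT5E-201. The next was a U 7 nt downstream, with 595 of 69323 tags (0.858%).

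The short form NT5E-202, which ends in what is an intron of the long transcript, had 3 sites led by 87 of 11858 tags (0.734%, interval 0.595 to 0.904%), beside ATTAAA. An intronic site 19455 nt upstream of any later annotated end had 45 of 1025 tags (4.39%) and an AATAAA, and 6 of the 40 nt downstream of it were A. The runs are at chr6:85495752-85495781, chr6:85471558-85471587 and chr6:85452126-85452155.
NT5E-201 end: tagattcccaacAATAAAattgaagataag
NT5E-202 end: atgtaatatacATTAAAtgggaacatgtgc
NT5E intron: gtaatgacaaAATAAAtatttgtagaattg

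CD44, the hyaluronan receptor and adhesion molecule, had the most sites. At chr11:35138882-35232402 on the plus strand, all its 30 sites were in the 3′UTR, and 28 were within 100 nt of an annotated end. The far end, shared by CD44-201 and CD44-208, had 18 sites, up to 76011 tags and 3409 deletions. A single U 58 nt from this end had 1449 of 51415 tags (2.82%, interval 2.68 to 2.97%), and the other 17 sites of the cluster had 37 to 482 deletions. No AATAAA was within 25 nt of any of the 18. The hexamer printed with the leading site is an ATTAAA that began 22 nt downstream and ran past the 25-nt limit.

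The near end of CD44, that of CD44-207 and CD44-209 at 35230027, had 9 sites, up to 37304 tags and 1706 deletions. AATAAA was in all 9 windows. The leading site, 10 nt from the end, had 487 of 35036 tags (1.39%, interval 1.27 to 1.52%), and a C 31 nt from it had 450 of 28357 tags (1.59%, interval 1.45 to 1.74%). A further end upstream, that of CD44-225, had 112 of 2357 tags (4.75%) beside CATAAA. CD44 ranked 6 by number of sites, 15 by its deepest site and 30 by summed deletions. The runs are at chr11:35232343-35232372, chr11:35229994-35230023 and chr11:35229434-35229463.
CD44 far end: gttgaaagcacttattggaaaatATTAAAa
CD44 near end: ttcatAATAAAtatctgtacttcttcgatc
CD44-225 end: tgcgaatcttttttagCATAAAattttcta

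**Figure D1:**
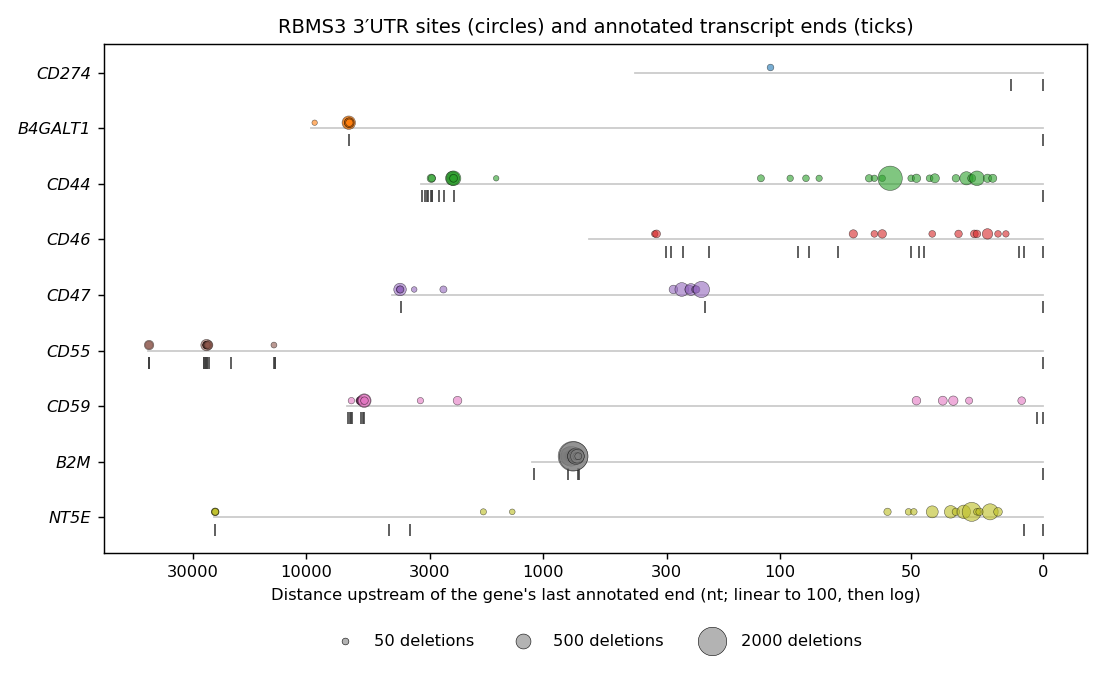
Every 3′UTR site of the 9 genes (circles, area by number of deletions) by its genomic distance upstream of the gene's last annotated end, in nt on an axis that is linear to 100 and logarithmic beyond, with annotated transcript ends as ticks. Deep sites stood at more than 1 end in several genes, among them CD44, CD47, CD59 and NT5E, whereas B2M had them at a single place with 2194 deletions at its leading site.

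The map of sites and ends shows what the genes had in common. Of the 145 sites in 3′UTRs, 130 lay within 100 nt upstream of an annotated end of any transcript of the gene (89.7%, interval 83.5 to 94.1%), beside 69.1% of all listed 3′UTR sites. The median distance was 29 nt, beside 34 nt in the whole list. With 1 leading site per cluster, 19 of 29 were that near (65.5%, interval 45.7 to 82.1%), beside 58.9% in the list, which lies within the interval. This count depended on which ends were used: with the end of 1 representative transcript per gene, it was 82 of 139 sites (59.0%), beside 50.1% in the whole list. With that end the count was 24 of 25 for B2M, 11 of 12 for B4GALT1 and 12 of 14 for NT5E, and 17 of 30 for CD44, 5 of 22 for CD59, 2 of 9 for CD55 and 0 of 14 for CD47.

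Of the 37 clusters, 22 had a site within 100 nt of an annotated end in either direction. Of the other 15, 9 had fewer than 200 tags. The remaining 6 were the CD47 site at 108045722, the intronic pair of CD55, 2 single sites of CD59, and the sites of NT5E in the intron and at 85494007, where 32 of 240 tags carried the deletion (13.3%).

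**Figure D2:**
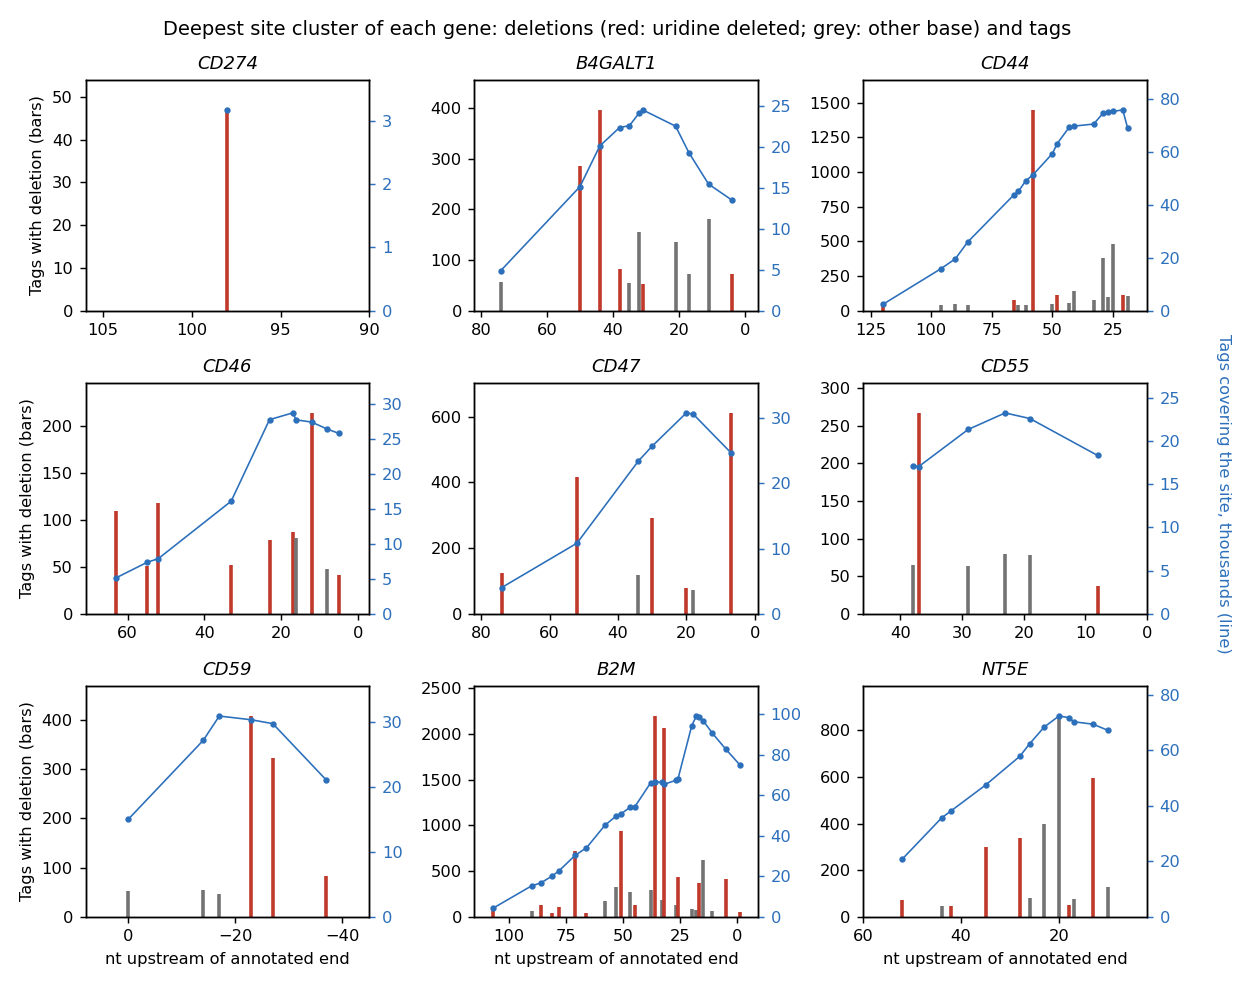
Tags with the deletion at each site (bars, left axis, red where a uridine was deleted and grey for other bases) and tags covering the site (blue line, right axis, in units of 1000 tags) in the deepest cluster of each gene. Positions are nt upstream of the annotated end nearest to the site with the most tags. In B2M, B4GALT1 and CD44 the tallest bar lay upstream of the highest coverage, and in NT5E both were at the same site.

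The position of the deletions relative to the coverage differed between clusters, as the profiles at the ends show. In the 12 clusters of at least 5 sites, which held 122 sites, the site with the most deletions was upstream of the site with the most tags in 5, at the same site in 3, and downstream of it in 4. The offset ran from 37 nt upstream in CD44 to 13 nt downstream in CD47, with a median of 0 nt. The most frequent deletion was thus at the deepest site in only 3 of these 12 clusters.

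AATAAA was within 25 nt of 68 of the 154 sites (44.2%, interval 36.2 to 52.4%), beside 46.4% of all listed sites. ATTAAA was found at 21 (13.6%), beside 15.1%. A further single-base variant of the signal (AGTAAA or TATAAA or CATAAA or GATAAA or AATATA or AATACA or AATAGA) was found at 59 sites (38.3%, interval 30.6 to 46.5%), beside 26.1%. The AUA motif was in 71 windows (46.1%, interval 38.1 to 54.3%), beside 46.8%, and apart from AATAAA in 29 (18.8%), beside 14.8%. ATTTA, the core of AU-rich elements, was in 29 (18.8%), beside 5545 of the 27706 in the list. Over all sites, the intervals for AATAAA, the AUA motif and ATTTA held the list's shares. Among sites with at least 1000 tags, AATAAA was at 47.9% (interval 39.4 to 56.5%), beside 59.7% in the list, and the AUA motif at 47.9% (interval 39.4 to 56.5%), beside 56.9%, so both shares were lower than in the list and the intervals did not reach its values. Among sites with the deletion in under 30% of tags, AATAAA was at 47.2% (interval 38.8 to 55.7%), beside 57.7%. With 1 site per cluster at sites of at least 1000 tags, AATAAA was at 12 leading sites (52.2%, interval 30.6 to 73.2%), beside 63.2%, within the wider interval. That share was not computed for the AUA motif. CD59 had AATAAA in 1 of its 22 windows, and without CD59 the share over all sites was 50.8% in place of 44.2%. The AUA motif was in 6 of the 22. All 22 CD59 sites had the deletion in under 30% of tags, and only the site with 680 tags had fewer than 1000. CD59 therefore lowered the shares among deep sites and among sites under 30% too. Those shares were not computed without CD59, so the gaps from the list are not shown to hold for the other genes.

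The counts were spread unevenly over the genes. ATTAAA was confined to 3 of the 9 genes, with 10 windows in CD44, 8 in B4GALT1 and 3 in NT5E. AUA matches apart from AATAAA were in 9 windows of B4GALT1, 6 of CD59, 5 of CD47, 4 of CD55, 3 of NT5E, 2 of CD46 and none of CD274, CD44 or B2M. Neighbouring windows overlap, so these are counts of windows and not of separate motifs.

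A uridine was deleted at 84 of the 154 sites (54.5%, interval 46.3 to 62.6%), beside 63.2% of all listed sites. An A was deleted at 43 (27.9%), a G at 17 and a C at 10 (6.49%). The uridine share went with the deletion percentage: it was 37 of 46 (80.4%) where 1 to 30% of tags had the deletion and 39 of 96 (40.6%) where at most 1% had it, beside 77.0% and 43.2% in the whole list. These genes had 96 sites of at most 1% (62.3%, interval 54.2 to 70.0%), against 24.8% of the list. All such sites had at least 1000 tags, and among sites of that depth the shares were 68.6% here and 39.0% in the list. Within each class of deletion percentage the uridine share was therefore close to that of the list. The leading site of a cluster was a uridine in 27 of 37 clusters. At 125 sites (81.2%, beside 80.6%) the deleted base was next to an identical base, where a deletion cannot be placed exactly.

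**Figure D3:**
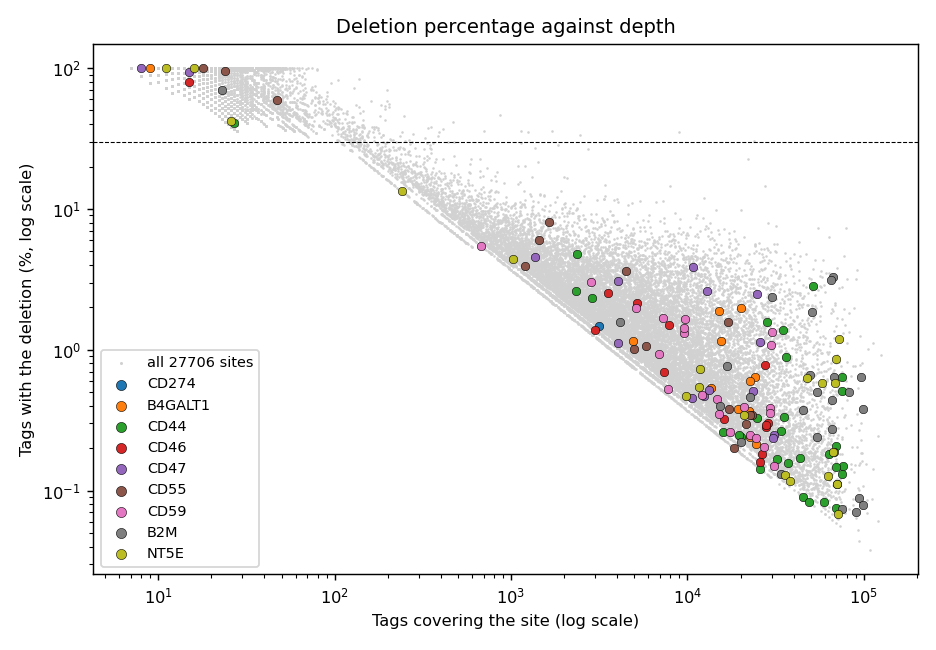
Percentage of tags with the deletion against the number of tags covering the site, both on log scales, for all 27706 sites (grey) and for the 154 sites of the 9 genes (coloured), with a dashed line at 30%. Most of the coloured sites lie at the deep, low-percentage end, and 12 lie above the line at 8 to 47 tags.

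The deletion percentages were low and the coverage deep, and the plot against depth shows that the smallest percentage in the list fell as tags rose. Across the 154 sites the median was 0.521%, beside 2.95% in the list. Many of these sites are neighbours in a few deep clusters, and with 1 leading site per cluster the medians were 3.61% here and 37.5% in the list. Among sites with at least 1000 tags the medians were 0.469% and 1.40%. The deletion was in under 30% of tags at 142 sites (92.2%, interval 86.8 to 95.9%), beside 70.1% of all listed sites. The other 12 had 8 to 47 tags, and at 5 of them every tag carried the deletion. CD55 and NT5E had 3 each, CD47 had 2, B4GALT1, CD44, CD46 and B2M had 1 each, and CD274 and CD59 had none. These shallow sites made up all 3 of the sites in coding exons and the exon of a non-coding transcript.

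The partners of these proteins were taken as 10 lists of 112 genes, of which 57 had a 3′UTR site (50.9%), beside the 32.5% of all protein-coding genes. Genes that are not expressed cannot give sites, and expression was not measured here, so a list's share reads as sites found and not as preference. Genes named from each list are those with the most deletions, except PDCD1LG2 and the members of groups of 5 or fewer.

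For regulators of PD-L1 protein, 11 of 14 genes had a 3′UTR site (78.6%). CMTM6, which keeps PD-L1 from lysosomal breakdown, had 16 sites and 3589 deletions, far more than the 47 of CD274 itself. STT3B, a catalytic subunit of the oligosaccharyltransferase, had 1257 deletions, and USP22, a deubiquitinase, had 905. Among the other beta-1,4-galactosyltransferases, 4 of 6 had a site: B4GALT5 with 763 deletions, B4GALT6 with 165, B4GALT3 with 46 and B4GALT2 with 14, against 1553 in B4GALT1. T cell ligands and the B7 family had 7 of 17 (41.2%), led by PVR with 458 deletions, CD58 with 432 and CD40 with 129. PDCD1LG2, which encodes PD-L2 and neighbours CD274, had 8 deletions in 8 tags at its single site.

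In MHC class I presentation 11 of 15 genes had a site (73.3%). The chaperone CANX had 42 sites and 6259 deletions, the peptide transporter subunit TAP2 had 985 and the chaperone CALR 808. In the interferon gamma pathway 6 of 9 genes had a site, with JAK1 at 2160 deletions, IFNGR2 at 495 and IFNGR1 at 258.

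The partners of CD47 had 3 of 8, namely THBS1, a secreted ligand of CD47, with 17 sites and 4448 deletions, the phosphatase PTPN11 with 151, and LRP1 with 45. Partners of CD44 and genes of hyaluronan had 6 of 10, led by the protease MMP14 with 1084 and the cytoskeletal linkers MSN with 996 and EZR with 777. In the adenosine pathway 4 of 14 had a site: the nucleoside transporter SLC29A1 with 772 deletions, ENPP1 with 710, the adenosine receptor ADORA2B with 638 and the kinase ADK with 424. NK cell ligands had 4 of 11, namely MICB with 2617, MICA with 105, ULBP2 with 89 and BAG6 with 70. Of the other complement regulators only C1QBP, 1 of 8, had 3′UTR sites, with 1341 deletions. CD46, CD55 and CD59, which were chosen with earlier results known, each had at least 12 sites in the 3′UTR.

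**Figure D4:**
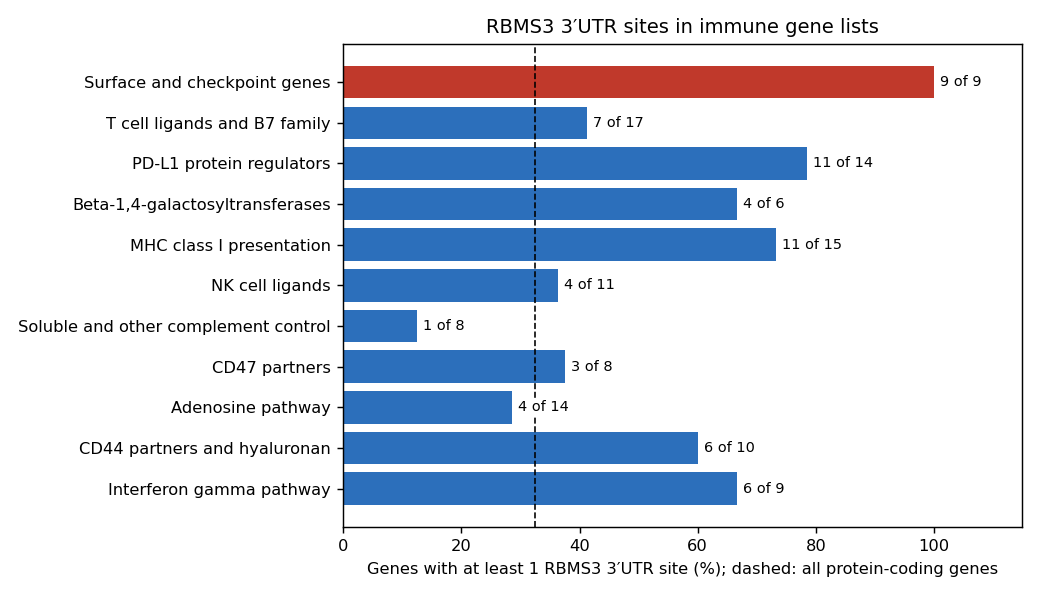
Percentage of the genes of each list with at least 1 RBMS3 site in the 3′UTR (bars, with counts), for the 9 surface and checkpoint genes (red) and the 10 partner lists (blue), with a dashed line at the 32.5% of all protein-coding genes. The PD-L1 regulators, at 78.6%, and MHC class I presentation, at 73.3%, were the highest of the partner lists, and other complement control, at 12.5%, the lowest. The 9 genes and the lists were chosen with earlier results of these data known.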

How the data were processed

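CLIP-seq of FLAG-tagged RBMS3 was analysed from the pooled site list of 2 replicates. The authors appended molecular identifiers to the reads with their own script and used the CLIP Tool Kit (version not given in the sources used here): reads were aligned to hg38, collapsed to unique tags and pooled, and deletion sites induced by crosslinking were filtered by false discovery rate and by a fold whose definition is not given in the sources used here. The list was deposited as counts of tags and of deletions per site, not normalized, with at least 7 deletions and at most 125056 tags. Library totals and counts per replicate were not analysed here.

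The deleted base was taken as the centre of each 21-nt interval and placed by strand on all transcripts of GENCODE release 44, in the order 3′UTR without the stop codon, 5′UTR, coding exon, other exon, intron. Distances to ends are in genomic nt. Sites up to 50 nt apart formed a cluster, motifs were searched on the gene's strand in windows of 51 nt, and A bases were counted over 40 nt downstream. Deletion percentages of single sites have 95% Wilson intervals and shares of sites have 95% exact binomial intervals. With 1 group and 1 pooled list no test was made.

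The members and the gene lists were chosen with earlier results of these data known. Named were all 9 genes and, from each list, up to 3 genes with the most deletions in 3′UTR sites and all genes of groups of 5 or fewer. PDCD1LG2 was named after its values were seen. The values of some list genes are not reported here. Alternatives were minimum deletions, deletion percentages, cluster distances, window sizes, distances to ends, 1 representative transcript, 1 site per cluster, ends in either direction and each gene left out, the last 2 chosen after the data were seen. Placement, distances, runs and intervals were tested on simulated data. Python 3.11.15, pandas 2.3.3, scipy 1.17.1, pysam 0.24.0 and matplotlib 3.10.9 were used.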

Additional observations from a re-analysis of the deposited data

How the results depend on the processing

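No paired analysis was possible because both replicates belong to the only group and were merged in the deposited list, and no replicate could be left out. Of 96 values recomputed under alternatives, 76 stayed within their interval or within 1.5 times the count, and the other 20 are given here. The 76 include every value with 1 gene left out. Those values share most of their sites with the main value and could move little, so all 20 that moved came from the other alternatives. With at least 50 deletions per site there were 21 clusters and 98.3% of sites were in 3′UTRs. With the deletion in at least 10% of tags, 13 sites in 13 clusters were left, 5 genes kept a 3′UTR site, 53.8% of sites were in 3′UTRs, 14.3% of those were within 100 nt of an end, 7.69% of windows had AATAAA, and the median deletion percentage was 93.3%. With the deletion in under 30% of tags, 97.9% were in 3′UTRs. Joining sites within 10 nt gave 56 clusters. The share near an end was 59.0% with 1 representative transcript per gene, 76.6% within 50 nt and 65.5% with 1 site per cluster. The share with AATAAA was 22.1% with 10 nt on each side, 55.8% with 50 nt and 35.1% with 1 site per cluster. A uridine was deleted at 73.0% of sites with 1 site per cluster, where the median deletion percentage was 3.61%, and at 34.5% where the deleted base differs from both neighbours. The cause of these shifts was not tested. Leaving out each gene in turn gave 92.7 to 95.7% in 3′UTRs, 87.5 to 93.5% near an end, 41.7 to 50.8% with AATAAA and 52.5 to 57.3% with a deleted uridine. The partner lists had 55 in place of 57 genes with a 3′UTR site under both of their alternatives.

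Depth limited the results in 2 ways. At the 12 sites of 8 to 47 tags a percentage is only roughly known, and at deep sites the list holds deletions in under 0.1% of tags that a shallow site could not show, so percentages of deep and shallow sites are not on the same footing.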
